A study of Mus musculus with 15 samples.

Results

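mmu-miR-335-5p and mmu-miR-335-3p, written below without the species prefix, are the mature arms of 1 hairpin, mir-335, which lies inside the imprinted gene Mest, and they were described here by name, as 2 of the 248 mature miRNAs measured by small-RNA sequencing of mouse Kupffer cells. Kupffer cells are the resident macrophages of the liver. The study set obese mice against lean ones at 2 ages, with 4 libraries from ob/ob mice and 4 from wt mice aged 14 weeks, and 3 libraries from ob/ob mice and 4 from wt mice aged 9 weeks. The wt mice were C57BL/6J; ob/ob mice make no working leptin, the hormone by which fat restrains appetite, and the labels name no background strain for them. No treatment or diet is recorded for any group, and nothing in the labels says whether a library came from 1 animal or from pooled animals. The p-values therefore measure the spread between these libraries, which may be technical.

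Mest (mesoderm specific transcript) is expressed from the paternal copy and encodes a protein of the alpha/beta-hydrolase fold family, and its mRNA is known to rise in fat tissue that expands in obese mice. A miRNA within an intron is usually cut from the transcript of its host; the hairpin gives a duplex, and the strand loaded into Argonaute then pairs with target mRNAs through its seed. miR-335 has been reported as higher in the liver and white fat of obese mice. The tables hold mature miRNAs alone, so Mest mRNA was not measured here.

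The hairpin is shown because both arms, and so the ratio between them, come from it. It lies at chr6:30741299-30741396 on the plus strand (GRCm38.p6, sequences from RefSeq). In GENCODE vM21 (GRCm38) Mest runs from 30723547 to 30748465 on the same strand, and all 7 Mest transcripts that span the hairpin carry it in an intron, from 30740825 to 30742140, and none in an exon. The capitals mark the 5p arm and then the 3p arm.
Mir335 hairpin: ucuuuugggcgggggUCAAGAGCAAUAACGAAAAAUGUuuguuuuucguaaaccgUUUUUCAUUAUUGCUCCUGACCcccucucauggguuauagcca
The 5p arm spans chr6:30741314-30741336 and the 3p arm chr6:30741354-30741375, and here the capitals mark the seed, bases 2 to 8.
miR-335-5p: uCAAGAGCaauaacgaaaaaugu
miR-335-3p: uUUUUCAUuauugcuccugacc
The arms differ in their seeds. Each seed was held by 1 of the 1679 mature miRNAs of the RefSeq table, the arm itself, and no other miRNA of the files with a sequence shared it. The longest run of bases in which the arms are reverse complements is 9 bases long, from base 5 to 13 of the 5p arm and from base 8 to 16 of the 3p arm. Both are poor in G and C. The 5p arm has 30.4% GC and the 3p arm 36.4%, against a median of 47.6% over the 218 miRNAs with a sequence, of which 6 had as little GC as the 5p arm or less.

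The values, as the authors deposited them in 1 table per age, were taken as RPM, reads per 1000000 reads. That unit was inferred and is not stated. Both arms were above 0 in all 15 libraries. If the unit is RPM and the smallest step between values is 1 read, which the files do not state, the libraries hold 9.08 to 98.1 M reads each. At 14 weeks the ob/ob libraries were the deeper ones (44.0 to 98.1 M, against 9.08 to 39.0 M in wt), with no overlap. Replicate 1 of wt at 14 weeks stands apart. The listed miRNAs summed to 147387 RPM in it, and 45 of them were at 0 in it. In the other libraries they summed to 272978 to 333502 RPM in ob/ob and 317539 to 353829 RPM in wt at 14 weeks, and to 230785 to 250422 RPM in ob/ob and 297668 to 358621 RPM in wt at 9 weeks. Because sums differed, each test was run on the deposited scale and again after median-ratio rescaling, which brings the median miRNA of each library to a common level. Of 5 markers of macrophages and myeloid cells 3 were measured, and their sum was 2386 to 4026 RPM in ob/ob and 1833 to 2917 RPM in wt at 14 weeks, and 2139 to 3272 RPM in ob/ob and 3144 to 4465 RPM in wt at 9 weeks. Of the 2 tested, 0 passed an adjusted p of 0.05 at 14 weeks on either scale, where 15.2% and 28.6% of all miRNAs did. At 9 weeks miR-511-3p was lower as deposited (log2 difference -1.07, limma, adjusted p = 0.00984), where 32.4% of all miRNAs were. After rescaling it did not pass (adjusted p = 0.0860). In bulk RNA of this kind, fewer cells of a type and less RNA per cell cannot be told apart.

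At 14 weeks both arms were higher in ob/ob Kupffer cells, in every ob/ob library relative to every wt library. The test across all miRNAs called miR-335-3p on both scales and miR-335-5p after rescaling. mmu-miR-335-3p, the less abundant arm, was at 93.1, 87.8, 69.3 and 47.0 RPM in ob/ob replicates 1 to 4 and at 9.25, 35.1, 28.1 and 32.8 RPM in wt replicates 1 to 4. The lowest ob/ob library lay 11.9 RPM above the highest wt library, and wt replicate 1 was far below the other wt libraries. The means were 74.3 ± 20.8 RPM in ob/ob and 26.3 ± 11.8 RPM in wt (SD, n = 4 each), a ratio of 2.82. On the log2(RPM + 0.5) scale the difference was 1.59 ± 0.44 (SE), with an adjusted p of 0.0352 by limma with Benjamini-Hochberg adjustment over 171 miRNAs. Of these, 15.2% were called (adjusted p under 0.05), 11.7% higher and 3.51% lower, and 22.2% had every ob/ob library above every wt library.

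mmu-miR-335-5p was at 257.8, 230.8, 155.2 and 118.4 RPM in ob/ob replicates 1 to 4 and at 14.5, 104.2, 89.9 and 85.0 RPM in wt replicates 1 to 4. The ob/ob libraries again lay above all wt libraries, by 14.2 RPM at the closest, and wt replicate 1 was again the low one. The means were 190.5 ± 64.8 RPM in ob/ob and 73.4 ± 40.1 RPM in wt (SD, n = 4 each), a ratio of 2.60. The log2 difference was 1.63 ± 0.60 (SE; 95% interval 0.29 to 2.97), and it did not pass the threshold (limma, adjusted p = 0.0930). It was as large as that of the 3p arm, with a wider spread. The 5p arm ranked 45 to 53 of the 248 miRNAs by level in ob/ob and 63 to 89 in wt, while the 3p arm ranked 68 to 82 in ob/ob and 81 to 101 in wt.

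**Figure D1:**
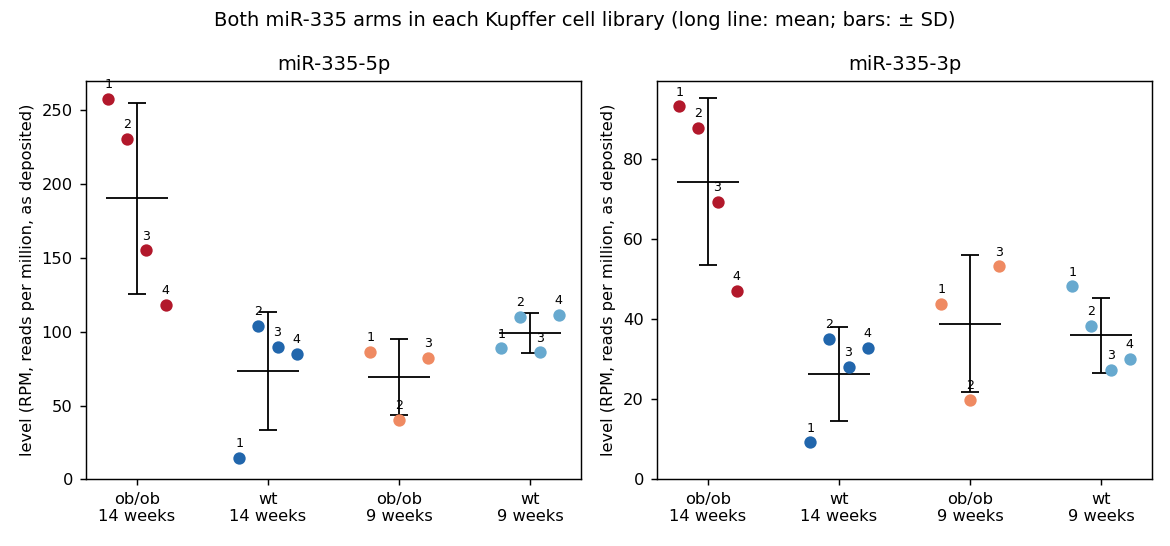
Level of miR-335-5p (left) and miR-335-3p (right) in RPM for each library, numbered by replicate, with the group mean (long line) and SD (bars); the vertical scales differ. At 14 weeks all 4 ob/ob libraries lie above all 4 wt libraries in both panels, wt replicate 1 is lowest at 14.5 and 9.25 RPM, and at 9 weeks the genotypes overlap.

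Rescaling left the separation in place. miR-335-3p then averaged 66.0 ± 13.7 in ob/ob and 25.3 ± 6.62 rescaled RPM in wt (SD, n = 4 each), and it rose by 1.38 ± 0.25 on the log2 scale (limma, adjusted p = 0.00507). miR-335-5p averaged 169 ± 46.7 in ob/ob and 68.2 ± 29.3 rescaled RPM in wt, and it rose by 1.41 ± 0.41 (limma, adjusted p = 0.0324). On this scale 28.6% of 168 miRNAs were called, 15.5% higher and 13.1% lower, and 16.1% had every ob/ob library above every wt library. The median miRNA shifted by 0.20 as deposited and 0.00 after rescaling, so relative to it the arms differed by 1.40 (3p) and 1.43 (5p) as deposited and by 1.38 (3p) and 1.41 (5p) rescaled. Among the 171 miRNAs, 10 had a higher log2 difference than the 3p arm and 9 a higher one than the 5p arm.

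**Figure D2:**
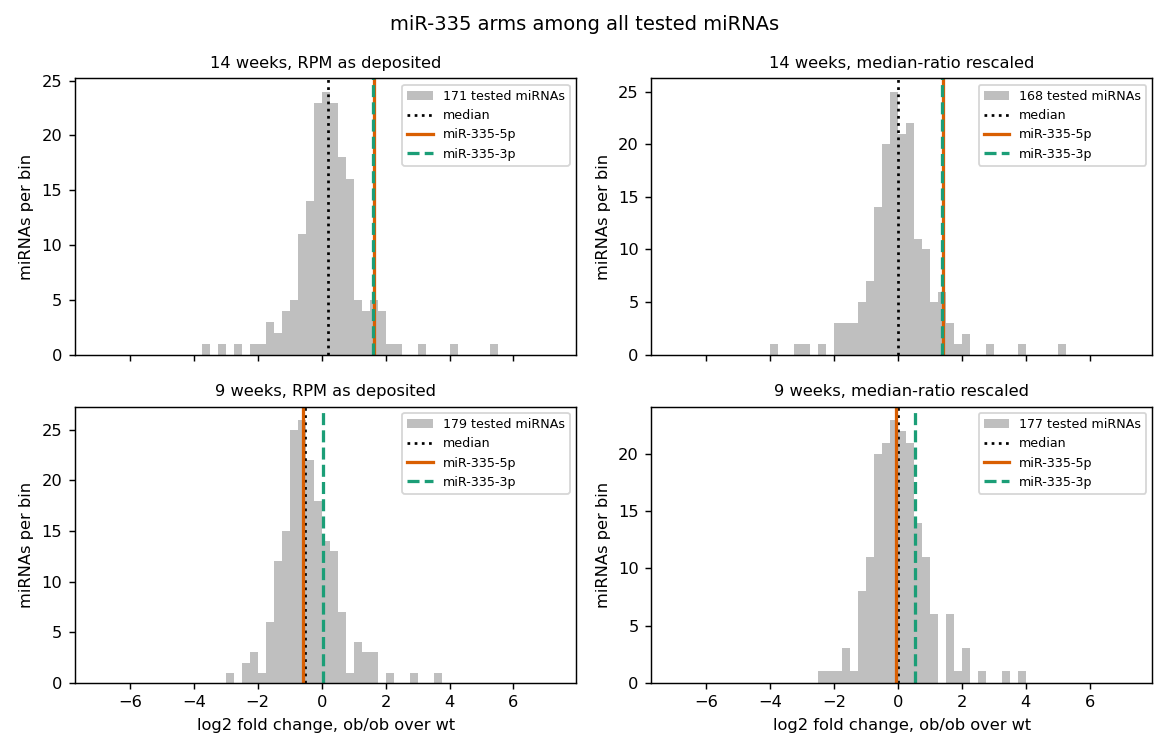
Histograms of the log2 fold change, ob/ob over wt, for all tested miRNAs (171 and 168 at 14 weeks, 179 and 177 at 9 weeks), as deposited on the left and rescaled on the right, with a dotted line at the median and 1 line for each arm. At 14 weeks both arms lie in the right tail, at 1.63 and 1.59 as deposited, while at 9 weeks the 5p arm lies near the median and the 3p arm to its right.

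The size of the 14-week difference rests in part on wt replicate 1. Without it wt averaged 93.0 ± 9.97 RPM of the 5p arm and 32.0 ± 3.59 RPM of the 3p arm (SD, n = 3). The log2 difference was then 1.16 for the 3p arm (limma, adjusted p = 0.0169) and 0.97 for the 5p arm (adjusted p = 0.0430), so both arms were called, with ob/ob still above wt throughout. As deposited the 3p arm was no longer called when ob/ob replicate 1, 2 or 3 was left out, or when wt replicate 3 or 4 was, at adjusted p of 0.0515 to 0.111 and log2 differences of 1.47 to 1.75. After rescaling, leaving out each library in turn kept the 3p call (adjusted p 0.00629 to 0.0184), but the 5p arm lost its call when any of these same 5 libraries was left out (adjusted p 0.0504 to 0.0833).

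Sequencing lane moved with the size of the difference. Replicates 1 and 2 of both genotypes were run in lane 1 and replicates 3 and 4 in lane 2. In lane 1 alone the log2 difference was 2.29 for the 3p arm (limma, adjusted p = 0.159) and 2.62 for the 5p arm (adjusted p = 0.0828). In lane 2 alone it was 0.90 for the 3p arm (limma, adjusted p = 0.0704) and 0.63 for the 5p arm (adjusted p = 0.110). Within each lane the ob/ob libraries of both arms thus lay above the wt libraries, and lane 1 holds the low wt replicate 1. The ob/ob libraries were also higher in lane 1. Their 5p arm was at 257.8 and 230.8 RPM there, against 155.2 and 118.4 RPM in lane 2. Their 3p arm was at 93.1 and 87.8 RPM in lane 1, against 69.3 and 47.0 RPM in lane 2. With lane as a covariate the difference of the 3p arm stayed at 1.59, with an adjusted p of 0.0578 by limma, and after rescaling the same fit called the 3p arm (adjusted p = 0.00810) and the 5p arm (adjusted p = 0.0442). After a correction for GC content on top of rescaling, the 3p arm rose by 1.0 ± 0.25 (limma, adjusted p = 0.0178), while the 5p arm differed by 0.81 ± 0.39 (adjusted p = 0.165).

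**Figure D3:**
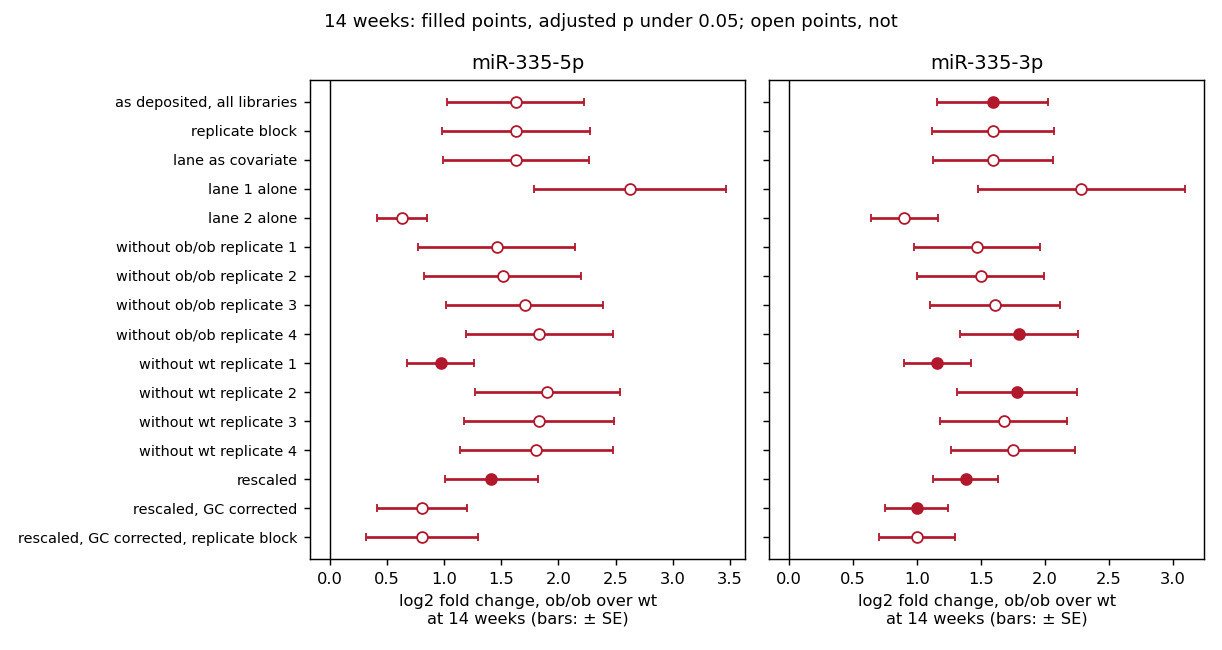
Log2 fold change of miR-335-5p (left) and miR-335-3p (right), ob/ob over wt at 14 weeks, with its SE (bars), for the deposited values and for other processing settings or with libraries left out; filled points have an adjusted p under 0.05 and open points do not. All values are above 0, from 0.63 in lane 2 to 2.62 in lane 1 for the 5p arm and from 0.90 to 2.29 for the 3p arm.

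Markers of other cell types were summed beside the arms. The 6 measured of 7 hepatocyte miRNAs summed to 3296 to 6950 RPM in ob/ob and 1155 to 1738 RPM in wt at 14 weeks, with no overlap as deposited, and to 4035 to 5598 RPM in ob/ob and 1156 to 2274 RPM in wt at 9 weeks. After rescaling the sums overlapped at 14 weeks, at 2795 to 7402 in ob/ob and 1038 to 2950 in wt. They stayed apart at 9 weeks, at 4858 to 7024 in ob/ob and 948 to 1951 in wt. At 14 weeks most of the deposited sum was miR-192-5p (5212 ± 1590 RPM in ob/ob and 1317 ± 247 RPM in wt). miR-192-5p (limma, adjusted p = 0.00256) and miR-194-5p (187 ± 7.18 RPM in ob/ob and 107.7 ± 7.39 RPM in wt, log2 difference 0.79, adjusted p = 0.0352) were called higher in ob/ob at that age as deposited. miR-215-5p differed by 1.21 and was not called (limma, adjusted p = 0.117). After rescaling miR-194-5p lost its call (limma, adjusted p = 0.12) and miR-215-5p gained one (adjusted p = 0.0457). At 14 weeks 2 of the 4 tested were thus called higher on either scale, where 11.7% of all miRNAs were as deposited and 15.5% rescaled. miR-122-5p, the miRNA that defines hepatocytes, was at 54.9 ± 17.9 RPM in ob/ob and 46.7 ± 39.2 RPM in wt at 14 weeks (limma, adjusted p = 0.551). At 9 weeks it was called higher, at 166 ± 57.9 RPM in ob/ob and 46.3 ± 29.0 RPM in wt (log2 difference 2.02, limma, adjusted p = 0.0244, and 2.53 rescaled, adjusted p = 0.0208). miR-192-5p was called higher at 9 weeks too (1.57, limma, adjusted p = 0.00529, and 2.08 rescaled, adjusted p = 0.00589). miR-194-5p was called at that age after rescaling alone (0.93, limma, adjusted p = 0.0238). That made 2 of the 4 tested as deposited and 3 rescaled, where 5.03% and 11.3% of all miRNAs were called higher. The 7 measured of 9 stellate and mesenchymal miRNAs summed to 1559 to 3011 RPM in ob/ob and 496 to 1865 RPM in wt at 14 weeks, which overlap. Of the 6 tested, 0 were called as deposited at that age, where 15.2% of all miRNAs were. After rescaling 1 was called, miR-143-3p (log2 difference 1.05, limma, adjusted p = 0.0488), where 28.6% of all miRNAs were. At 9 weeks 3 of the 6 were called lower as deposited, where 32.4% of all miRNAs were. After rescaling 1 was called lower at 9 weeks, miR-199a-3p (-1.04, limma, adjusted p = 0.0371), where 10.2% of all miRNAs were. The single erythroid miRNA measured of 5, miR-144-5p, was at 11.6 to 32.4 RPM in ob/ob and 0.331 to 0.974 RPM in wt at 14 weeks. At 9 weeks it was at 14.7 to 21.7 RPM in ob/ob and 0.52 to 1.49 RPM in wt. It was called higher at 14 weeks as deposited (log2 difference 4.06, limma, adjusted p = 0.000108) and rescaled (adjusted p = 0.000116). It was also called higher at 9 weeks as deposited (3.59, limma, adjusted p = 0.000266) and rescaled (adjusted p = 0.00013). The endothelial, biliary epithelial and lymphocyte sums overlapped between genotypes at 14 weeks, with 33631 to 55779 RPM in ob/ob and 10833 to 63153 RPM in wt for the endothelial pair of miRNAs. Of 4 biliary epithelial miRNAs tested, 1 was called higher at 14 weeks on either scale, beside 11.7% and 15.5% of all miRNAs. For it, miR-141-3p, the log2 difference was 1.20 (limma, adjusted p = 0.0495) and 0.99 rescaled (adjusted p = 0.0457). At 9 weeks miR-141-3p was called after rescaling alone (0.91, limma, adjusted p = 0.0435). Endothelial miR-126a-3p was called lower at 9 weeks as deposited alone (-0.94, limma, adjusted p = 0.0230). No list was at 0 in all libraries of a table, and the part of these cells in the miR-335 result was not tested.

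At 9 weeks neither arm passed the test, on either scale. miR-335-3p was at 43.7, 19.8 and 53.2 RPM in ob/ob replicates 1 to 3 and at 48.2, 38.4, 27.4 and 30.0 RPM in wt replicates 1 to 4. The genotypes overlapped, with ob/ob replicate 2 the lowest library and ob/ob replicate 3 the highest. The means were 38.9 ± 17.2 RPM in ob/ob (SD, n = 3) and 36.0 ± 9.38 RPM in wt (SD, n = 4), and the log2 difference was 0.03 ± 0.36 (SE; limma, adjusted p = 0.960; 95% interval -0.80 to 0.87).

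miR-335-5p was at 86.3, 40.1 and 82.6 RPM in ob/ob replicates 1 to 3 and at 88.8, 110.3, 86.1 and 111.2 RPM in wt replicates 1 to 4. Here 2 of the 3 ob/ob libraries lay below all wt libraries, and ob/ob replicate 1 lay just above wt replicate 3. The means were 69.6 ± 25.7 RPM in ob/ob and 99.1 ± 13.5 RPM in wt (SD, n = 3 and 4), and the log2 difference was -0.58 ± 0.29 (SE; limma, adjusted p = 0.147; 95% interval -1.25 to 0.10). As deposited, calls at this age made up 37.4% of 179 miRNAs, with 5.03% higher and 32.4% lower, and the median miRNA was at -0.51, so the 5p arm lay 0.07 below the median and the 3p arm 0.54 above it.

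After rescaling, 21.5% of 177 miRNAs were called at 9 weeks (11.3% higher, 10.2% lower), and the log2 differences were 0.53 ± 0.36 for the 3p arm (limma, adjusted p = 0.317) and -0.07 ± 0.31 for the 5p arm (adjusted p = 0.898). Replicate 2 of ob/ob held the low values of both arms. Without it, ob/ob averaged 84.4 RPM of the 5p arm and 48.4 RPM of the 3p arm as deposited. On the rescaled values without it the 3p arm was called, at a log2 difference of 0.99 (limma, adjusted p = 0.0212), and the 5p arm turned to 0.32 (adjusted p = 0.218). That library was singled out by its values of these same arms, so the call is no evidence of a difference at 9 weeks. Leaving out each wt library in turn left the rescaled 3p arm uncalled (limma, adjusted p 0.286 to 0.489). All 9-week libraries were run in lane 2, so no lane comparison could be made.

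The 2 tables were normalized separately, so levels at the 2 ages are set side by side with no test of 14 against 9 weeks within a genotype. In ob/ob the 5p arm averaged 190.5 RPM at 14 weeks and 69.6 RPM at 9 weeks, and in wt it averaged 73.4 RPM at 14 weeks and 99.1 RPM at 9 weeks. The 3p arm averaged 74.3 RPM at 14 weeks and 38.9 RPM at 9 weeks in ob/ob, and 26.3 RPM at 14 weeks and 36.0 RPM at 9 weeks in wt. By mean level of either arm, ob/ob at 14 weeks stood first; the other groups lay within 1 SD of a neighbour in the order, and their order differed between the arms.

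Whether the ob/ob difference changed with age was tested as the interaction of genotype and age over all 15 libraries. The difference at 14 weeks minus that at 9 weeks was 2.20 ± 0.75 for miR-335-5p (limma, unadjusted p = 0.0105, adjusted p = 0.132) and 1.56 ± 0.61 for miR-335-3p (unadjusted p = 0.0222, adjusted p = 0.134), so neither passed the threshold. None of 187 miRNAs did (0%), with 48 at an unadjusted p under 0.05, and the median miRNA was at 0.68. After rescaling the interaction was 1.48 ± 0.56 for the 5p arm (limma, adjusted p = 0.361) and 0.85 ± 0.45 for the 3p arm (adjusted p = 0.568). Of the 187 miRNAs, 5 had a higher interaction than the 5p arm as deposited and 10 a higher one than the 3p arm. A call at 14 weeks and none at 9 weeks is thus not shown to be a difference between the ages.

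The 5p arm was the more abundant one in every library. The ratio of 5p to 3p RPM compares reads, not molecules, since the 2 sequences may enter a library unequally. At 14 weeks it was 2.77, 2.63, 2.24 and 2.52 in ob/ob replicates 1 to 4 and 1.57, 2.96, 3.20 and 2.59 in wt replicates 1 to 4. The ob/ob libraries lay inside the wt range, whose low end was replicate 1, the library with the fewest reads. The mean ratio was 2.54 ± 0.225 in ob/ob and 2.58 ± 0.718 in wt (SD, n = 4 each), and the log2 ratio differed by 0.03 ± 0.25 (SE; limma over 33 hairpins, adjusted p = 0.953; 95% interval -0.54 to 0.61). A two-sided exact permutation test on the log2 ratio gave p = 0.971, where the smallest p it allows is 0.0286. Without wt replicate 1 the log2 difference was -0.19 (limma, adjusted p = 0.358), and it was 0.34 in lane 1 and -0.27 in lane 2. Among the 33 hairpins with both arms tested, 30.3% were called.

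At 9 weeks the ratio was 1.97, 2.02 and 1.55 in ob/ob replicates 1 to 3 and 1.84, 2.87, 3.15 and 3.71 in wt replicates 1 to 4. All ob/ob libraries lay below wt replicates 2 to 4, and wt replicate 1 fell among them. The mean ratio was 1.85 ± 0.257 in ob/ob and 2.89 ± 0.781 in wt (SD, n = 3 and 4), and the log2 ratio differed by -0.61 ± 0.27 (SE; limma over 35 hairpins, adjusted p = 0.190; 95% interval -1.25 to 0.03), where 17.1% of hairpins were called. The two-sided exact permutation p was 0.114. Without wt replicate 1 the log2 difference was -0.81 (limma, adjusted p = 0.0363), and it was the only library of the 7 whose removal gave a call. That library is the wt one whose ratio fell among those of ob/ob, so the call is no evidence of a ratio difference at 9 weeks. The difference of the ratio effect, 14 minus 9 weeks, was 0.64 ± 0.37 (limma over 37 hairpins, adjusted p = 0.435, 0% called, 2 hairpins at an unadjusted p under 0.05).

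The depth behind a ratio differed between libraries, and the reads given here are inferred from the step between values. In wt replicate 1 at 14 weeks the RPM would stand for 132 reads of the 5p arm and 84 of the 3p arm, so the 5p share of both arms was 61.1% with a 95% exact binomial interval of 54.3% to 67.7%. The other wt libraries of 14 weeks had shares of 72.1% to 76.2%, outside that interval. In ob/ob at 14 weeks, with an inferred 6098 to 22628 reads of the 5p arm, the share was 69.1% to 73.5%. At 9 weeks it was 60.8% to 66.9% in ob/ob and 64.8% to 78.8% in wt. The intervals cover counting error only, since reads are not independent molecules, and they hold only as far as the inferred reads do.

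**Figure D4:**
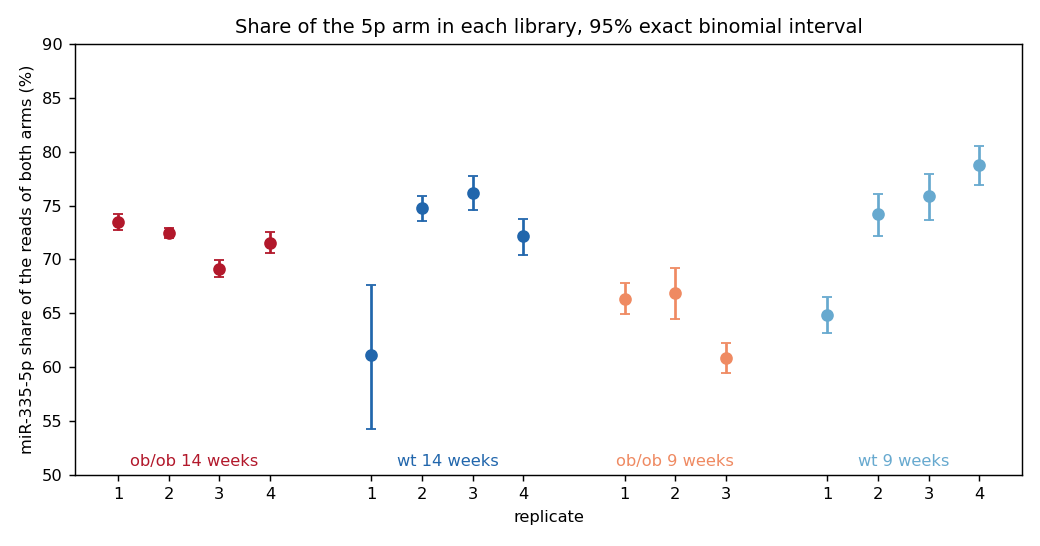
Share of the 5p arm in the reads of both miR-335 arms (%; the axis starts at 50) for each library by replicate, with the 95% exact binomial interval, which covers counting error only. The ob/ob libraries lie at 69.1% to 73.5% at 14 weeks and 60.8% to 66.9% at 9 weeks, and replicate 1 is the lowest wt library at either age.

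Set against the other hairpins with both arms tested, miR-335 had one of the more even pairs. The absolute log2 ratio of the arms ranked 6 of 33 from the most even at 14 weeks and 4 of 35 at 9 weeks, against a median of 5.52 at 14 weeks and 5.42 at 9 weeks. The mean log2 ratio of miR-335 was 1.32 at 14 weeks and 1.21 at 9 weeks. The 5p arm was the larger one in 22 of the 33 hairpins at 14 weeks and in 24 of the 35 at 9 weeks.

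Over the 15 libraries, after subtracting the mean of each age, the arms correlated with each other at a Pearson r of 0.92. The value was 0.83 without wt replicate 1 of 14 weeks and 0.91 after subtracting the mean of each group, against a median r of 0.42 of all other candidates with the mean of the arms. The libraries share their depth and scaling across miRNAs, so these values are descriptions. The 5 miRNAs most like the mean of the arms, of 166 tested at both ages, were miR-450b-5p (r = 0.97), miR-215-5p (0.96), miR-152-5p (0.92), miR-99a-5p (0.89) and miR-27b-3p (0.88). Without wt replicate 1 of 14 weeks the values of r were 0.91 for miR-450b-5p, 0.91 for miR-215-5p, 0.77 for miR-152-5p, 0.78 for miR-99a-5p and 0.64 for miR-27b-3p. miR-450b-5p was at 50.7 ± 13.3 RPM in ob/ob and 27.3 ± 11.1 RPM in wt at 14 weeks, and miR-215-5p, which is also on the hepatocyte list, at 96.3 ± 39.9 RPM in ob/ob and 43.3 ± 19.6 RPM in wt. Neither passed the test as deposited (limma, adjusted p = 0.117 for each), and both did after rescaling (0.0317 for miR-450b-5p and 0.0457 for miR-215-5p). The ob/ob difference is part of the likeness by which they were picked, so these calls are no separate support. After subtracting each group mean, r was 0.95 for miR-450b-5p (rank 7), 0.96 for miR-215-5p (rank 1) and 0.85 for miR-152-5p (rank 25). It was 0.92 for both miR-99a-5p (rank 13) and miR-27b-3p (rank 14).

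Other miRNAs of imprinted loci, most of them from the Dlk1-Dio3 region, were not called at either age. Of 50 such miRNAs, the miR-335 arms included, 12 were measured. At 14 weeks 5 besides the arms were tested, 0 were called by limma on either scale, where 15.2% of all miRNAs tested were called as deposited and 28.6% rescaled. So few members say little about imprinted loci. Their median log2 difference was 0.00 as deposited and -0.18 rescaled, beside 0.20 and 0.00 over all miRNAs tested. miR-127-3p, the most abundant of the 5 and chosen for that after its values were seen, was at 8.81 ± 2.24 RPM in ob/ob and 9.49 ± 4.77 RPM in wt (limma, adjusted p = 0.984). At 9 weeks 7 besides the arms were tested as deposited and 0 were called, where 37.4% of all miRNAs were, with a median of 0.09 beside -0.51 over all miRNAs. After rescaling 6 were tested and 0 called, beside 21.5% of all miRNAs.

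Of 17 miRNAs reported to change in obese fat or liver, the miR-335 arms among them, 13 were measured and tested at both ages. At 14 weeks 2 rose and 0 fell as deposited, a share of calls near the 15.2% of all miRNAs, with a median log2 difference of 0.50 beside 0.20 over all miRNAs. The other riser was miR-34a-5p, a p53 target reported as higher in fatty liver, at 18.0 ± 4.56 RPM in ob/ob and 4.76 ± 1.17 RPM in wt (1.81 ± 0.28, limma, adjusted p = 0.00256). Of the 11 tested besides the arms, 1 was thus called as deposited, with a median log2 difference of 0.41. After rescaling 5 rose, both arms included, and 1 fell, where 28.6% of all miRNAs were called. Besides the arms 3 rose and 1 fell on that scale, with a median of 0.19. The 1 that fell was miR-222-3p, at 160.3 ± 35.8 RPM in ob/ob and 264 ± 60.6 RPM in wt (rescaled log2 difference -0.93 ± 0.23, limma, adjusted p = 0.0164). At 9 weeks miR-34a-5p was the 1 that rose, at 13.6 ± 1.51 RPM in ob/ob and 5.54 ± 1.72 RPM in wt (1.26 ± 0.28, limma, adjusted p = 0.00984), and it was called after rescaling too (adjusted p = 0.00817). As deposited 4 fell at 9 weeks, none of them an arm of miR-335, a share near the 32.4% of all miRNAs called lower, and after rescaling 0 did, where 10.2% of all miRNAs were called lower. miR-34a-5p was thus called higher in ob/ob at both ages. With all libraries the miR-335 arms were called at 14 weeks alone, miR-335-3p on both scales and miR-335-5p only after rescaling. This contrast between ages and miRNAs was not tested.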

How the data were processed

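Libraries were made from column-purified small RNA with a TruSeq kit and sequenced on an Illumina HiSeq, per the labels. The submitters' processing notes list the tools cutadapt and bcl2fastq and 2 builds, mm10 and GRCm38.p5. Not given in the sources used here are the aligner, the counter, the miRNA annotation and the RPM denominator. The values deposited by the authors, 1 table per age, were taken as RPM. The unit was inferred from the values: each library's values are whole multiples of 1 step, within 0.1 of a whole number for 100.0% of those worth up to 100000 reads. Taking the step as 1 read gave the reads behind the arm shares and, with the unit taken as RPM, the depth. The tables were too short for these reads to count as recovered, so they describe precision only. The design foresaw a count model should the tables hold counts, which they do not; none was used.

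log2(RPM + 0.5) was tested for each age with limma 3.58.1 (R 4.3.3) by robust, intensity-trended empirical Bayes moderation, and p-values were adjusted by Benjamini-Hochberg over all tested miRNAs (threshold 0.05). Tested miRNAs had at least 1 RPM in 3 libraries (9 weeks and interaction) or 4 libraries (14 weeks). Fold changes on this scale understate changes of rare miRNAs. Arm ratios used hairpins with both arms tested. Rescaling divided each library by its median ratio to the geometric mean of its age, using miRNAs that averaged 5 RPM or more and were never at 0. The GC correction was linear, per library, from the mature sequence. The tests were checked on simulated data with independent normal noise. These had no outlying library and no shift shared across miRNAs, so the check does not cover those features of the deposited values.

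The miRNAs, lists and alternatives were chosen with earlier results of these data known. Both arms are always given. The most similar miRNAs are the 5 with the highest r to the mean of the arms; from lists, up to 4 members past the threshold by smallest p could be named. Alternatives were the pseudocount, the filter, limma without trend, rescaling, GC, lane, the replicate block and leaving out each library.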

Additional observations from a re-analysis of the deposited data

Results flagged for a closer look

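Replicate 1 of wt at 14 weeks was far below the other wt libraries of that age in 3 measures. Its miR-335-5p was at 3.91 on the log2(RPM + 0.5) scale, where the other wt libraries were at 6.42 to 6.71. Its miR-335-3p was at 3.29 on that scale, where the others were at 4.84 to 5.16, a gap only just past the limit (0.830 of the range, against a critical value of 0.829). After rescaling its miR-335-5p was at 4.68, where the others were at 6.27 to 6.51. In all, 24 checks were made, on several measures of the same arms in the groups of 4 libraries, and chance flags about 1 in 20. The measures depend on each other, so the 3 flags are 1 library seen in related ways. It was not flagged for 5p RPM (0.786 of the range), 3p RPM (0.728) or rescaled 3p on the log2 scale (0.706). The same library has the lowest depth, the lowest sum of listed miRNAs and the most miRNAs at 0; the part of these in its low arms was not tested.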

How the results depend on the processing

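Apart from leaving out 1 library, the 3p difference at 14 weeks stayed above 0 and lost its call with the replicate block (1.59, adjusted p = 0.0979), with lane as covariate (1.59), in lane 1 (2.29 as deposited, 1.78 rescaled) or lane 2 alone (0.90), and with rescaling, GC correction and the block (1.0). The 5p difference gained its call with rescaling (1.41), and on that scale kept it with lane as covariate (1.41) and in lane 2 alone (0.71) but not in lane 1 alone (2.12, adjusted p = 0.270) or with the replicate block (adjusted p = 0.0958). Rescaled fits with lane, the block or a library left out, and the GC correction of ratios, were added after seeing the data. Leaving out each library gave 1.16 to 1.79 (3p) and 0.97 to 1.90 (5p) as deposited, and 1.18 to 1.51 (3p) and 0.99 to 1.60 (5p) rescaled. At 9 weeks the 3p difference turned with the block (-0.043) and ranged over -0.25 to 0.45 without each library (0.22 to 0.99 rescaled); the 5p difference ranged over -0.77 to -0.22 (-0.26 to 0.32 rescaled). The ratio difference at 14 weeks turned with GC correction (-0.19) and in lane 2 (-0.27), and ranged over -0.19 to 0.15 without each library; at 9 weeks it ranged over -0.81 to -0.47. The causes were not tested.

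Counts of calls also moved. At 9 weeks, 67 miRNAs were called, with 32 under the block, 38 rescaled, 39 with GC correction too and 10 with the block as well, and 53 to 71 without each library (14 to 37 rescaled). At 14 weeks, 26 were called, with 48 rescaled, 44 rescaled with lane, 1 in lane 1 (0 rescaled), 51 in lane 2 (63 rescaled) and 13 to 46 without each library (28 to 55 rescaled). Interaction calls numbered 0, with 4 under no filter, 2 under the block and 0 to 3 without each library. Ratio calls at 9 weeks numbered 6, with 16 under no filter, 0 with the block, 0 with GC correction and 0 to 7 without each library. At 14 weeks they numbered 10, with 2 under GC correction, 0 in lane 1, 3 in lane 2 and 0 to 12 without each library.

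Whether the replicate numbers pair the libraries is not settled by these values, since each group holds few libraries. Deviations of same-numbered libraries correlated at -0.14 to 0.28 at 9 weeks and -0.24 to 0.20 at 14 weeks, and 3 of the 7 ob/ob libraries correlated best with the wt library of their own number. Other pseudocounts, no filter on low values and limma without trend and robust fitting moved no call of an arm. Depth limits wt replicate 1 of 14 weeks most, with an inferred 84 reads of the 3p arm. The lane 1 and lane 2 fits hold 2 libraries a genotype.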
